A study of Mus musculus with 26 samples.

Results

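Imprinted genes are expressed mainly from the copy inherited from the mother or mainly from the copy inherited from the father, because DNA methylation laid down in the germ line marks one of them. Many of them act on growth of the embryo, and a network of imprinted genes is active in fetal tissues and in some adult stem cells and is switched off as tissues mature. Blood stem cells are among the adult cells in which members of this network are known to be expressed. The members described here are H19, Igf2, Dlk1, Meg3, Grb10, Ndn, Plagl1, Mest, Peg3 and Igf2r. They were taken as all probe sets whose platform annotation names exactly 1 of these symbols. That gave 37 of the 45101 probe sets on the array, from 9 of the 10 genes. Ndn had 8 probe sets, Meg3 had 11, Peg3 had 5, Grb10 and Plagl1 had 3 each, Igf2, Igf2r and Dlk1 had 2 each, and Mest had 1. H19 had none, because the probe set that carries its symbol also carries Mir675, the microRNA gene lying within the H19 transcript. The values of that probe set are given last and are assigned to neither gene.

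Total RNA was measured on 26 Affymetrix expression arrays, 1 per sample, from 8 populations of C57/Bl6 male mice aged 2 months. Bone marrow was the source of MPPFL- (n = 5), MPPFL+, CMP, GMP and CLP (n = 3 each), and thymocytes were the source of DN1, DN2 and DN3 (n = 3 each). These are conventionally multipotent progenitors split by the FL label, common myeloid, granulocyte-macrophage and common lymphoid progenitors, and consecutive thymocyte stages. No genotype or treatment other than these is labelled, the population label of the CLP arrays reads ALP, and nothing says that replicates were separate animals, so every p-value below measures only the spread between these arrays.

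Levels are the deposited log2 values. The lowest of them, 2.17, recurred on every array and is called the floor, and a probe set is called near the floor where its value is within 1 log2 unit of it. A difference is a difference of population means on the log2 scale, and it passed where the adjusted p of the limma fit was under 0.05 after Benjamini-Hochberg adjustment over all 45037 probe sets that are not controls of the array maker. Levels of different probe sets cannot be set against each other, since each has its own response. Arrays do not separate the parental copies, and in bulk RNA fewer cells expressing a gene and less RNA per cell cannot be told apart.

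Certain arrays stood apart. The 15 poly-A spike-in control probe sets put the arrays into 6 clusters. All arrays of CLP, MPPFL+ and MPPFL- fell together, as did all of DN2 and DN1, and the GMP arrays formed a cluster of their own. DN3 replicate 3 fell with CMP replicates 2 and 3, while CMP replicate 1 stood alone and DN3 replicates 1 and 2 made up the last cluster. Comparisons can be made within a cluster for MPPFL+ with MPPFL-, CLP with MPPFL+, and DN2 with DN1, while elsewhere cluster and population cannot be fully told apart. Xist, which coats the silenced X in female cells, had levels of 12.21 and 13.59 on DN1 replicates 1 and 3 and of 12.99 and 6.30 on DN2 replicates 2 and 3, although all arrays are labelled male. Lower values of 4.45, 4.39 and 3.74 on MPPFL- replicates 1, 2 and 5 also lay outside the floor range, and those arrays were left out only singly. Several marker levels followed the titles, but not all were specific. Flt3 was at 13.31 in MPPFL+ and 10.995 in MPPFL-, Il7r at 13.23 in CLP and Elane at 13.75 in GMP. Il2ra was at 13.14 in DN2 and 13.16 in DN3, and Ptcra at 12.81 in DN3. Flt3 also reached 13.58 in CLP, and Il2ra had a mean of 7.37 in DN1. Mpo peaked in GMP, with a mean of 16.11, but was not confined to the myeloid arrays. Its DN1 mean was 13.59 and its DN2 mean 11.31. The CLP mean of Mpo, 14.15, lay between those of MPPFL- (14.01) and MPPFL+ (14.23), and DN3 was lowest with 3.82. The fibroblast collagens Col1a1, Col1a2, Col3a1 and Col6a1 were near the floor on every array, as were 7 of the 13 measured fibroblast and stroma markers in all. The mean level over the 13 lay between 2.88 in GMP and 3.97 in DN3. Among the others were Postn, at 7.55 in MPPFL+, and Pdgfrb, at 7.10 in GMP and higher elsewhere. A further collagen of the list, Col5a1, was at 4.31 in CMP. Thy1, also listed there, was at 9.17 in DN2 and 13.44 in DN3.

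The promoters of Ndn, which was high in both MPP populations, and of Grb10, Igf2r and Meg3, the members that differed between them, are printed to show how unlike they are in CG content, the dinucleotide that DNA methylation acts on. They are RefSeq sequences of build GRCm38.p6 from 250 bases before to 50 bases after the first annotated start, 5′ to 3′ on the gene's strand, with each CG in capitals. Ndn lies at chr7:62348027-62348326 on the plus strand, Grb10 at chr11:12037371-12037670 on the minus strand, Igf2r at chr17:12769657-12769956 on the minus strand and Meg3 at chr12:109540746-109541045 on the plus strand.
Ndn: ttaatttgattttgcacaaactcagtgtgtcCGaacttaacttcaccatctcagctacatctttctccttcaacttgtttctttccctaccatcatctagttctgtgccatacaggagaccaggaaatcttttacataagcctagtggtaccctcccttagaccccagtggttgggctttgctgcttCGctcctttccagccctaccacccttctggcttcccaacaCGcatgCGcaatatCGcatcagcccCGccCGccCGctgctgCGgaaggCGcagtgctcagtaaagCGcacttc
Grb10: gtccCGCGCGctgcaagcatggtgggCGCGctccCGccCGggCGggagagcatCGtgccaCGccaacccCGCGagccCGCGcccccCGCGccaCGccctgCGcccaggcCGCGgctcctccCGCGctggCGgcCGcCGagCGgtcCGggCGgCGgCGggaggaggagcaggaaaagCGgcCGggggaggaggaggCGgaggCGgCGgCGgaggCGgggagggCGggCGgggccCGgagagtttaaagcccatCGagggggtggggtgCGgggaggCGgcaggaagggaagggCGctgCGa
Igf2r: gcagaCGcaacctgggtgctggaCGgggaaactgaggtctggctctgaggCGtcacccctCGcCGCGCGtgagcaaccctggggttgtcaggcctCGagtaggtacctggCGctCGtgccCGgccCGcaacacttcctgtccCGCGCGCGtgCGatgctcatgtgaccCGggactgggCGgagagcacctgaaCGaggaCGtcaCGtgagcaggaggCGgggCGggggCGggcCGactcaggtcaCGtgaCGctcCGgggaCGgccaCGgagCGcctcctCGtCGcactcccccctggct
Meg3: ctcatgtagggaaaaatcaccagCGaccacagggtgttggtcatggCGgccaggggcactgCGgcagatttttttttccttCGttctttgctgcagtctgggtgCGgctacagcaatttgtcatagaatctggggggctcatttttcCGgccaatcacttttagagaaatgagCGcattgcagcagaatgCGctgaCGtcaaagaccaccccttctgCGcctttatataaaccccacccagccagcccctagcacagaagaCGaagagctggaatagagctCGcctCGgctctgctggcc
The Grb10 window held 45 CG, a count reached by 1.93% of the RefSeq promoter windows of the same length. The Igf2r window held 34 CG, reached by 7.73% of windows, and the Meg3 and Ndn windows held 13 and 11 CG, reached by 37.9% and 41.4% of windows. The median window held 7 CG. Windows at a second annotated start held fewer, with 9 CG for Grb10 (reached by 45.8% of windows) and 1 CG for Meg3 (94.6%). The contrast printed here therefore holds for the first starts only. GGGGCCCC, a palindrome known as a binding motif of the Plagl1 protein, was in the window of Peg3 and in no window of the other 8 member genes with a promoter in the table, against 1.08% of all windows. A match describes letters only, and the expression arrays carry no methylation values.

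Across the 8 populations, 10 of the 37 member probe sets (27.0%) differed by the moderated F test of limma, against 50.1% of all probe sets tested. They belonged to Ndn, Grb10, Igf2r, Meg3 and Plagl1. Of the 37, 22 were near the floor on every array (59.5%, against 39.6% of all probe sets), and 8 of them never left the floor itself on any of the 26 arrays. Another 5 left the floor range on some array and did not pass. Dlk1, Mest and Peg3 were near the floor with every probe set on every array. The map of the array values shows a few lit rows, of which those of Ndn and Grb10 are brightest in MPPFL- and that of Igf2r in DN3.

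**Figure D1:**
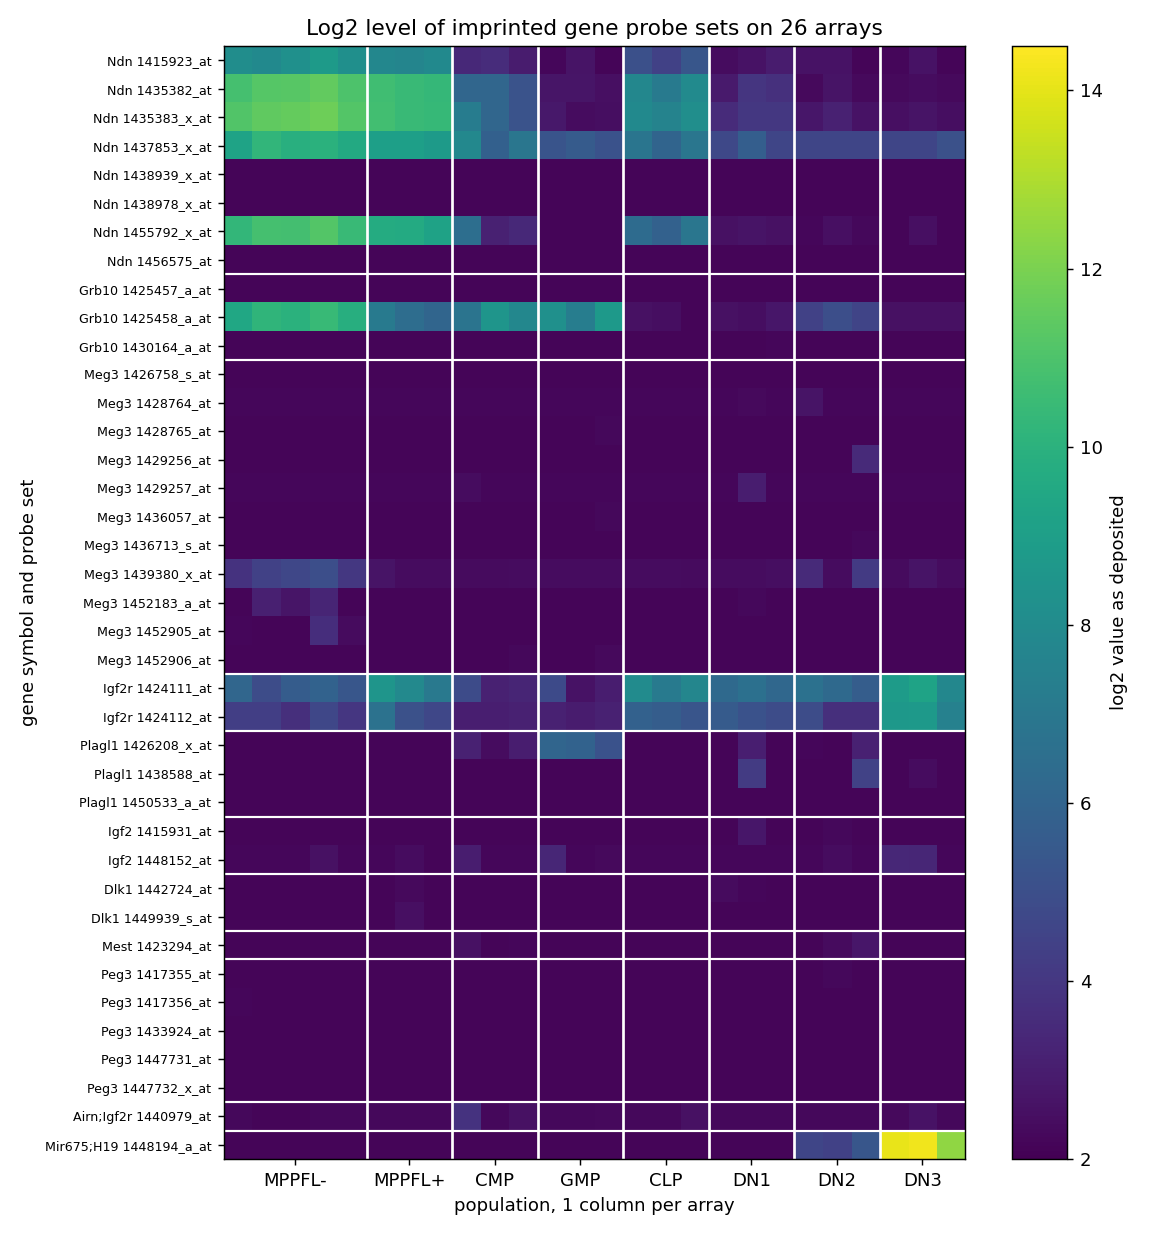
Log2 level as deposited (colour) of the 37 member probe sets and of the 2 probe sets that name a member with a second gene (bottom rows), with 1 row per probe set and 1 column per array in 8 populations. Most rows stay near the floor of 2.17 on all arrays, 5 of the 8 Ndn rows and 1 Grb10 row are high in MPPFL-, and the Mir675;H19 row is high in DN3.

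Ndn encodes necdin, a growth-restraining protein of the MAGE family that is expressed from the paternal copy and is known in mice for its part in stem cell quiescence. It was high in both MPP populations, intermediate in CLP and CMP, and low in GMP and the thymocytes. On probe set 1435382_at the MPPFL- arrays read 10.80, 11.22, 11.26, 11.50 and 11.00, and the MPPFL+ arrays read 10.66, 10.48 and 10.32. The CMP arrays read 6.14, 6.14 and 5.20, and the GMP arrays 2.73, 2.73 and 2.54. The CLP arrays read 7.76, 7.14 and 7.98, all above those of CMP. In the thymus, DN1 read 2.90, 3.91 and 3.71, DN2 read 2.34, 2.66 and 2.34, and DN3 read 2.34, 2.40 and 2.33, so DN2 and DN3 lay near the floor on every array.

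The fall from the progenitor stage passed on all 5 Ndn probe sets that were measured above the floor. In CMP against MPPFL+ the differences ran from -5.15 on 1455792_x_at to -2.12 on 1437853_x_at, and for 1435382_at the difference was -4.66 ± 0.27 (SE, adjusted p = 5.1e-10), a 25.3-fold lower level. In GMP against CMP the same probe set differed by -3.16 ± 0.27 (adjusted p = 6.2e-08), which against the near-floor GMP arrays is at least 8.94-fold lower. In CLP against MPPFL+ it differed by -2.86 ± 0.27 (adjusted p = 5.0e-07), and within the spike-in cluster that holds both populations the value was the same with an adjusted p of 0.00025. DN1 lay below CLP by -4.12 ± 0.27 (adjusted p = 2.5e-09), a 17.4-fold lower level. All 5 probe sets passed in each of these comparisons with arrays that did not overlap, and all 5 were also higher in CLP than in GMP, by 1.28 to 5.35. The GMP against CMP calls of 1415923_at, 1437853_x_at and 1455792_x_at were lost with the spike-in cluster as a random block (adjusted p = 0.33, 0.29 and 0.089), and that of 1437853_x_at also without CMP replicate 1 (adjusted p = 0.052). With the same block 1437853_x_at also lost its calls in CMP against MPPFL+ (adjusted p = 0.084), DN1 against CLP (adjusted p = 0.32) and CLP against GMP (adjusted p = 0.54), the last of which was lost in 6 of 36 other fits, among them that with quantile normalization (adjusted p = 0.14) and those without any 1 of GMP replicates 1 and 3 and CLP replicates 1 and 3. In DN1 against CLP it was lost too without the arrays with Xist above 5 (adjusted p = 0.40). With only the compared populations in the fit, 1415923_at, 1437853_x_at and 1455792_x_at lost GMP against CMP (adjusted p = 0.11, 0.26 and 0.40). That fit also lost CMP against MPPFL+ on 1437853_x_at and 1455792_x_at (adjusted p = 0.17 and 0.10). With values below 5 raised to 5, 1415923_at lost GMP against CMP, DN1 against CLP and CLP against GMP, and 1455792_x_at lost GMP against CMP (adjusted p = 0.51). For 1435382_at and 1435383_x_at these calls held in every fit made.

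Between the MPP populations Ndn was close to the threshold. All 5 probe sets had lower means in MPPFL+, by -0.46 to -1.19, and the adjusted p ran from 0.051 to 0.22, so none passed. The arrays of the populations did not overlap on 4 of the 5, and on 1415923_at they met at 7.93. An example is 1435383_x_at, which read 10.73, 10.47 and 10.36 in MPPFL+ against 11.09, 11.46, 11.54, 11.74 and 11.18 in MPPFL-. Within the spike-in cluster shared by both populations and CLP, 1435383_x_at (adjusted p = 0.012) and 1455792_x_at (adjusted p = 0.018) passed with the same differences, and the other 3 did not. Among thymocytes, 1435382_at was lower in DN2 than in DN1 by -1.06 ± 0.27 (adjusted p = 0.022), a call lost within the DN1 and DN2 cluster (adjusted p = 0.38) and in 4 of the fits without 1 array of those populations. On the other 4 probe sets, and in DN3 against DN2, no Ndn difference passed.

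The 5 Ndn probe sets followed each other, with Pearson correlations over the 26 arrays of 0.949 to 0.997, given as a description since the arrays share populations. The order on 1435382_at was MPPFL-, MPPFL+, CLP, CMP, DN1, GMP, DN2 and DN3, where MPPFL- and MPPFL+, GMP and DN2, and DN2 and DN3 did not differ beyond the spread. On 1437853_x_at, the probe set with the highest mean, CMP at 6.86 stood above CLP at 6.59 (adjusted p = 0.89), and that probe set never read below 4.61. The remaining 3 Ndn probe sets read the floor value throughout. The genes whose lead probe set (that with the highest mean) tracked the Ndn lead most closely over the 26 arrays, among 16932 genes, were Vldlr (r = 0.964), a lipoprotein receptor, Col4a1 (r = 0.962), a basement membrane collagen, and Gulp1 (r = 0.961), an engulfment adaptor.

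The stem cell markers were highest on average where Ndn was, but not each of them was. The mean level over the 7 measured stem cell markers was 8.85 in MPPFL-, 7.32 in MPPFL+, 5.31 in CMP, 3.19 in GMP and 4.14 in CLP, and 2.79 to 3.38 in DN1, DN2 and DN3. In CMP against MPPFL+, 4 of the 7 fell and 2 rose, beside 17.2% and 4.82% of the 18193 genes with a lead probe set. The 2 that rose were Tek, at 6.47 in CMP and 3.88 in MPPFL+, and Slamf1, at 4.97 and 2.28. Slamf1 had its highest mean in DN3, at 6.31. In CLP against MPPFL+, 5 fell and 0 rose, beside 3.66% and 2.31%. Hlf, a transcription factor of stem cells, was at 8.05 in CMP and 13.26 in MPPFL+, and Procr, a stem cell surface receptor, was at 3.82 in CLP and 11.02 in MPPFL+. The mean level over 7 endothelium markers was also highest in the MPP populations. It was 4.79 in MPPFL- and 4.90 in MPPFL+, against 3.03 to 4.17 elsewhere. Esam was at 8.47 in MPPFL- and 7.29 in MPPFL+, Tie1 at 6.71 and 5.73, and Emcn at 6.05 and 6.59. Pecam1 and Plvap had their highest means in CLP, at 7.41 and 5.29. Cdh5 and Kdr were near the floor on every array. The part of cells with such markers in the Ndn differences was not tested.

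**Figure D2:**
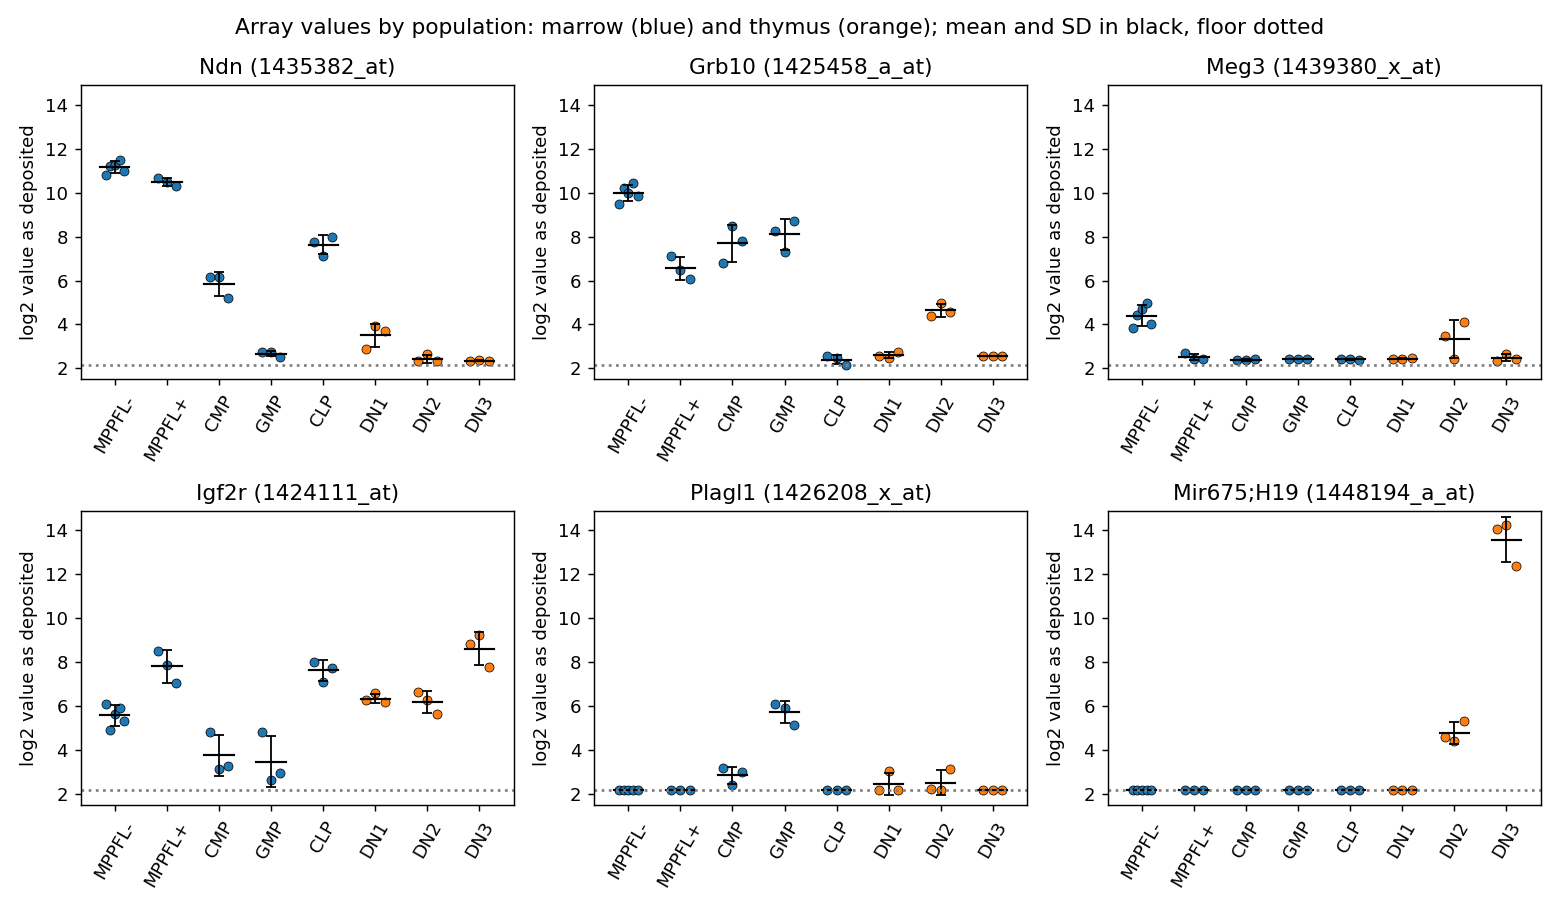
Log2 values as deposited (vertical axes) of 6 probe sets on each of the 26 arrays, by population along the horizontal axes, with points for arrays, black lines for the population mean and bars for 1 SD, and the floor of 2.17 dotted. Ndn is high in both MPP populations and lower in CMP, GMP and CLP, Grb10 is low in CLP, Igf2r is low in CMP and GMP, Plagl1 leaves the floor range in GMP, and the probe set of Mir675 and H19 reaches 12.40 to 14.25 in DN3.

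Grb10 encodes an adaptor that binds the activated insulin and insulin-like growth factor 1 receptors and dampens their signal, and in most mouse tissues it is expressed from the maternal copy. Of its 3 probe sets, 1425458_a_at was measured and the other 2 were near the floor on every array. The MPPFL- arrays read 9.46, 10.19, 9.97, 10.44 and 9.85, and the MPPFL+ arrays read 7.11, 6.49 and 6.06. The level then parted by branch, with 2.57, 2.48 and 2.17 in CLP, against 6.80, 8.50 and 7.79 in CMP and 8.26, 7.31 and 8.72 in GMP. DN1 read 2.56, 2.48 and 2.75, DN2 read 4.40, 4.99 and 4.55, and DN3 read 2.55, 2.57 and 2.55. All arrays of CLP, DN1 and DN3 were therefore near the floor and those of DN2 were not.

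Grb10 was lower in MPPFL+ than in MPPFL- by -3.43 ± 0.34 (SE, adjusted p = 7.1e-07), a 10.8-fold lower level, and within their spike-in cluster the adjusted p was 0.00011. It was lower again in CLP than in MPPFL+, by -4.15 ± 0.38 (adjusted p = 3.5e-07), at least 17.7-fold, with an adjusted p of 0.00013 within the cluster. CLP lay below GMP by -5.69 ± 0.38 (adjusted p = 8.4e-10), at least 51.7-fold. CMP was higher than MPPFL+ by 1.14 ± 0.38 (adjusted p = 0.045), but the arrays overlapped and the call was lost in 23 of the 36 other fits made, among them those without any 1 of MPPFL+ replicates 2 and 3 and CMP replicates 2 and 3. GMP and CMP did not differ beyond the spread (adjusted p = 0.61).

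In the thymus Grb10 was higher in DN2 than in DN1 by 2.05 ± 0.38 (adjusted p = 0.0018) and lower in DN3 than in DN2 by -2.09 ± 0.38 (adjusted p = 0.00029), at least 4.15-fold and 4.26-fold against near-floor arrays. Without the 4 arrays with Xist above 5, which leaves 1 array each of DN1 and DN2, the DN2 difference was 1.92 with an adjusted p of 0.16, and within the DN1 and DN2 cluster its adjusted p was 0.042. Both calls were lost when values below 5 were raised to 5, since all thymocyte arrays lie under that level. The order of population means was MPPFL-, GMP, CMP, MPPFL+, DN2, DN1, DN3 and CLP, and the neighbours GMP and CMP, DN1 and DN3, and DN3 and CLP did not differ beyond the spread.

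The genes most like Grb10 over the 26 arrays were Dach1 (r = 0.958), a transcriptional regulator, Insyn2a (r = 0.934) and Ctf1 (r = 0.934), a cytokine of the interleukin 6 family. Among the stem cell markers, Tek, the angiopoietin receptor, was likewise lower in MPPFL+ at 3.88 than in MPPFL- at 8.36 (difference -4.48, adjusted p = 2.5e-10), and stood at 6.47 in CMP. Tek parted from Grb10 in GMP, where it was at 2.29 against 6.47 in CMP (difference -4.17, adjusted p = 6.1e-10). Erythroid markers also rose in CMP against MPPFL+, in 4 of 5 measured genes, beside 4.82% of all genes. Their list mean was 5.99 in CMP and 3.79 in MPPFL+. Klf1 was at 9.11 in CMP (SD 0.56) and 2.59 in MPPFL+, and Tfrc at 11.50 (SD 0.62) and 9.86. Epor and Alas2, with CMP means of 3.75 and 3.42, varied widely between the CMP arrays (SD 1.39 and 1.18). The part of erythroid cells in the Grb10 level of CMP was not tested.

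Igf2 encodes the fetal growth factor at the centre of the network, and Igf2r encodes the cation-independent mannose 6-phosphate receptor, which takes up the Igf2 protein for degradation and sorts lysosomal enzymes. Igf2 itself was close to the floor in all populations, with 1415931_at near it on every array and a highest value of 3.38 on 1448152_at, reached on DN3 replicate 1. That probe set left the floor range on GMP replicate 1 and DN3 replicates 1 and 2 and did not pass the F test (adjusted p = 0.26). Igf2r, by contrast, was measured on both of its probe sets and both passed.

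Igf2r had its low point in the myeloid branch and its high point in DN3. On 1424111_at the MPPFL- arrays read 6.11, 4.91, 5.65, 5.92 and 5.33, and the MPPFL+ arrays read 8.52, 7.86 and 7.05. CMP read 4.83, 3.17 and 3.28, GMP read 4.81, 2.63 and 2.99, and CLP read 8.03, 7.09 and 7.76. DN1 read 6.26, 6.59 and 6.18, DN2 read 6.66, 6.29 and 5.66, and DN3 read 8.85, 9.23 and 7.79. The arrays of MPPFL+ and CLP lay above every array of MPPFL-, CMP and GMP. CMP replicate 1 and GMP replicate 1 stood above the other arrays of their populations.

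Igf2r was higher in MPPFL+ than in MPPFL- by 2.23 ± 0.50 on 1424111_at (SE, adjusted p = 0.0040) and by 1.29 ± 0.39 on 1424112_at (adjusted p = 0.029), with no overlap of arrays on either. Within the spike-in cluster the first kept its call (adjusted p = 0.0059) and the second lost it (adjusted p = 0.088), as it did without MPPFL+ replicate 1 (adjusted p = 0.29). CMP lay below MPPFL+ by -4.05 ± 0.56 (adjusted p = 4.0e-05) and -2.41 ± 0.44 (adjusted p = 0.00060). With the spike-in cluster as a random block the second call was lost (adjusted p = 0.16), as with values below 5 raised to 5 (adjusted p = 0.40). With only the compared populations in the fit both calls were lost (adjusted p = 0.068 and 0.15). CLP did not differ from MPPFL+ beyond the spread on either probe set, whereas CLP lay above GMP by 4.15 ± 0.56 (adjusted p = 1.3e-05), a 17.8-fold higher level, and by 2.54 ± 0.44 (adjusted p = 0.00020). The second of these was lost with the spike-in cluster as a random block (adjusted p = 0.11) and with values below 5 raised to 5 (adjusted p = 0.35).

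In the thymus Igf2r was higher in DN3 than in DN2 on both probe sets. On 1424112_at the DN3 arrays read 8.69, 8.76 and 7.51 and the DN2 arrays 4.92, 3.71 and 3.71, a difference of 4.21 ± 0.44 (adjusted p = 4.9e-07), or 18.5-fold, and this call held in every fit made. On 1424111_at the difference was 2.42 ± 0.56 (adjusted p = 0.0029), and it was lost without the arrays with Xist above 5 (adjusted p = 0.16) and with the spike-in cluster as a random block (adjusted p = 0.12). The probe sets correlated at 0.868 over the 26 arrays. They differed in the place of DN3, which on 1424112_at stood above the next population, CLP, by 2.70 (adjusted p = 8.9e-05), while on 1424111_at it stood above the next, MPPFL+, by 0.81 (adjusted p = 0.44).

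Airn is the antisense noncoding RNA that starts within Igf2r and silences the paternal copies of Igf2r and neighbouring genes in mouse tissues outside the adult brain. Its probe set 1451634_at reached 8.31 ± 0.75 in DN3 and was near the floor in DN2, at 2.75 ± 0.11 (SD, n = 3 each), a difference of 5.57 (adjusted p = 1.7e-12), so it was higher in the same comparison as Igf2r. It was between 2.65 and 2.94 in all other populations, among them MPPFL+ and CLP, where Igf2r was high. Probe set 1440979_at, annotated with both Airn and Igf2r and therefore no member, left the floor range only on CMP replicate 1, at 3.85. The genes most like Igf2r over the 26 arrays were Fam167a (r = 0.920), Spata6 (r = 0.900) and Trp53i11 (r = 0.896).

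Plagl1 encodes a zinc finger transcription factor, expressed from the paternal copy, that regulates other genes of the network in mice. It was measured in GMP on 1426208_x_at, which read 6.09, 5.92 and 5.17 there. The CMP arrays read 3.17, 2.41 and 3.00, and every array of MPPFL-, MPPFL+, CLP and DN3 was at the floor. DN1 read 2.17, 3.04 and 2.18 and DN2 read 2.24, 2.17 and 3.17, so 1 array of each stood somewhat above the floor. GMP was higher than CMP by 2.87 ± 0.26 (SE, adjusted p = 1.9e-07), at least 7.29-fold, and CLP was lower than GMP by -3.56 ± 0.26 (adjusted p = 4.2e-09), at least 11.8-fold. Both calls held in every fit made. Of 7 macrophage markers, 2 rose and 0 fell in GMP against CMP, beside 12.9% and 7.23% of all genes, with a list mean of 6.19 to 6.33 on the GMP arrays and 4.65 to 5.03 on the CMP arrays. Vcam1 was at 11.55 in GMP and 5.33 in CMP, Adgre1 at 9.03 and 6.12, and Csf1r at 13.17 and 12.87. C1qc and Mertk were near the floor in both populations. The part of such cells in the Plagl1 level was not tested.

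The other Plagl1 probe sets did not share this. 1450533_a_at was at the floor on all arrays, and 1438588_at left the floor range only on DN1 replicate 2, at 4.17, and DN2 replicate 3, at 4.45, the same arrays on which 1426208_x_at stood above the floor in the thymus. The GMP signal therefore rests on 1 of 3 probe sets, of a kind (x_at) whose probes may also match other transcripts. Its closest genes over the 26 arrays were Celsr3 (r = 0.969), a cadherin of the planar polarity pathway, Dgat2 (r = 0.966), an enzyme of triglyceride synthesis, and Slc44a4 (r = 0.965). Lin28a, an RNA-binding protein known from embryonic cells and from the insulin-like growth factor pathway, had 8.41 ± 0.25 in GMP and 2.18 ± 0.01 in CMP (SD, n = 3 each; difference 6.23, adjusted p = 8.7e-21).

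Meg3 is a maternally expressed long noncoding RNA, and Dlk1, its paternally expressed neighbour, encodes a transmembrane protein related to the Notch ligands. Meg3 signal was low. On 1439380_x_at the MPPFL- arrays read 3.85, 4.43, 4.68, 5.00 and 4.01, and the MPPFL+ arrays read 2.68, 2.43 and 2.43. No array of CMP, GMP, CLP, DN1 or DN3 read above 2.68, while DN2 read 3.49, 2.43 and 4.13. MPPFL- thus stood above every array outside DN2, and DN2 replicate 3 lay within the MPPFL- range.

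Meg3 was lower in MPPFL+ than in MPPFL- by -1.88 ± 0.27 (SE, adjusted p = 5.5e-05), at least 3.69-fold, and within their spike-in cluster the adjusted p was 0.0012. The call was lost with values below 5 raised to 5 (adjusted p = 0.29). MPPFL- was followed in the order by DN2, 1.04 lower (adjusted p = 0.0061), and the other 6 populations were near the floor. The lower level of DN3 than of DN2, by -0.87 ± 0.30 (adjusted p = 0.041), came with overlapping arrays and was lost without either DN2 replicate 1 (adjusted p = 0.11) or DN2 replicate 3 (adjusted p = 0.28), without any 1 of the DN3 arrays, and with the spike-in cluster as a random block (adjusted p = 0.52). Of the other 10 Meg3 probe sets, 1452183_a_at had its highest values in MPPFL- as well, at 2.17, 3.11, 2.71, 3.28 and 2.18, and did not pass the F test (adjusted p = 0.084). Of the 11 probe sets, 7 were near the floor on every array, so that Meg3 rests on 1 probe set of the x_at kind.

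Dlk1 had a highest value of 2.53 on either probe set, Mest, which encodes an enzyme of the hydrolase fold, had a highest value of 2.77, and Peg3, a paternally expressed zinc finger gene, had a highest value of 2.25 over 5 probe sets. No difference between populations passed for these genes, and at these levels none of them can be said to be present or absent. The likeness of Meg3 to other genes was not computed, because its population means spanned under 3 log2 units.

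The probe set annotated with both Mir675 and H19, 1448194_a_at, was high in DN3 and left the floor range in DN2 and DN3 alone. H19 is a maternally expressed long noncoding RNA next to Igf2 that restrains growth in mice, and its transcript is the precursor of the microRNA. The probe set was at the floor on every array of MPPFL-, MPPFL+, CMP, GMP, CLP and DN1. It read 4.61, 4.40 and 5.34 in DN2 and 14.08, 14.25 and 12.40 in DN3, with DN3 replicate 3, the array that shares a spike-in cluster with CMP, the lowest of the 3. DN3 was higher than DN2 by 8.80 ± 0.30 (SE, adjusted p = 4.7e-14), a 444-fold higher level, and this call held in every fit made. DN2 was higher than DN1 by 2.61 ± 0.30 (adjusted p = 1.4e-05), at least 6.10-fold, with an adjusted p of 0.055 within the DN1 and DN2 cluster, and this call was lost with values below 5 raised to 5 as well. No Igf2 difference passed between DN3 and DN2, and its values in DN3 were 3.38, 3.33 and 2.23 on 1448152_at.

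Some genes listed as markers of thymic epithelium or mature T cells were also higher in DN3. There the probe set of Mir675 and H19, Airn and Igf2r were high. Of 7 measured thymic epithelium markers, 2 rose and 0 fell in DN3 against DN2, beside 16.1% and 13.7% of all genes, and the list mean was 4.50 to 4.65 on the DN3 arrays and 3.26 to 3.44 on the DN2 arrays. Epcam, an epithelial adhesion molecule, was at 10.61 in DN3 and 2.85 in DN2 (difference 7.76, adjusted p = 7.9e-14). The other was Psmb11, a proteasome subunit of the thymic cortex, at 2.22 in DN3 and 2.17 in DN2, where the arrays overlapped at the floor. Ly75 was at 8.78 in DN3 and 7.97 in DN2, and Krt5 at 3.97 and 4.12, and neither passed. Krt8, Krt14 and Foxn1, a transcription factor of thymic epithelium, were near the floor on every array. Of 6 genes listed as mature T cell markers, 2 rose and 0 fell. Cd3e, a chain of the T cell receptor complex, was at 9.52 in DN3 and 3.42 in DN2. Cd3g was at 14.33 in DN3 and already at 10.19 in DN2, while Cd4 and Cd8b1 were near the floor in both. The part of such cells in the DN3 levels was not tested.

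By comparison, the members passed as follows. In MPPFL+ against MPPFL-, 4 of 37 passed (10.8%, against 15.0% of all probe sets), 2 higher (7.56% of all) and 2 lower (7.44% of all). In CMP against MPPFL+, 8 passed (21.6%, against 16.0% of all), 1 higher (4.9% of all) and 7 lower (11.1% of all). In GMP against CMP, 6 passed (16.2%, the same as over all probe sets, 16.2%), 1 higher (9.86% of all) and 5 lower (6.29% of all). In CLP against MPPFL+, 6 passed (16.2%, against 4.11% of all), 0 higher (1.73% of all) and 6 lower (2.39% of all). These 6 were the 5 measured Ndn probe sets and 1 of Grb10, so they stand for 2 genes. In DN1 against CLP, 5 passed (13.5%, against 23.1% of all), all of Ndn, 0 higher (10.2% of all) and 5 lower (13% of all). In DN2 against DN1, 2 passed (5.41%, against 5.48% of all), 1 in each direction (2.74% of all in each). In DN3 against DN2, 4 passed (10.8%, against 23.9% of all), 2 higher (12.6% of all) and 2 lower (11.3% of all). In CLP against GMP, 9 passed (24.3%, against 20.8% of all), 7 higher (11.3% of all) and 2 lower (9.42% of all). Taking the lead probe set of each of the 9 measured genes, the median difference lay between -0.05 and 0.06 in all 8 comparisons, beside a median of 0 over the 18193 genes. In each population 4 to 7 of the 9 were near the floor on every array, so this median says little about the others.

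**Figure D3:**
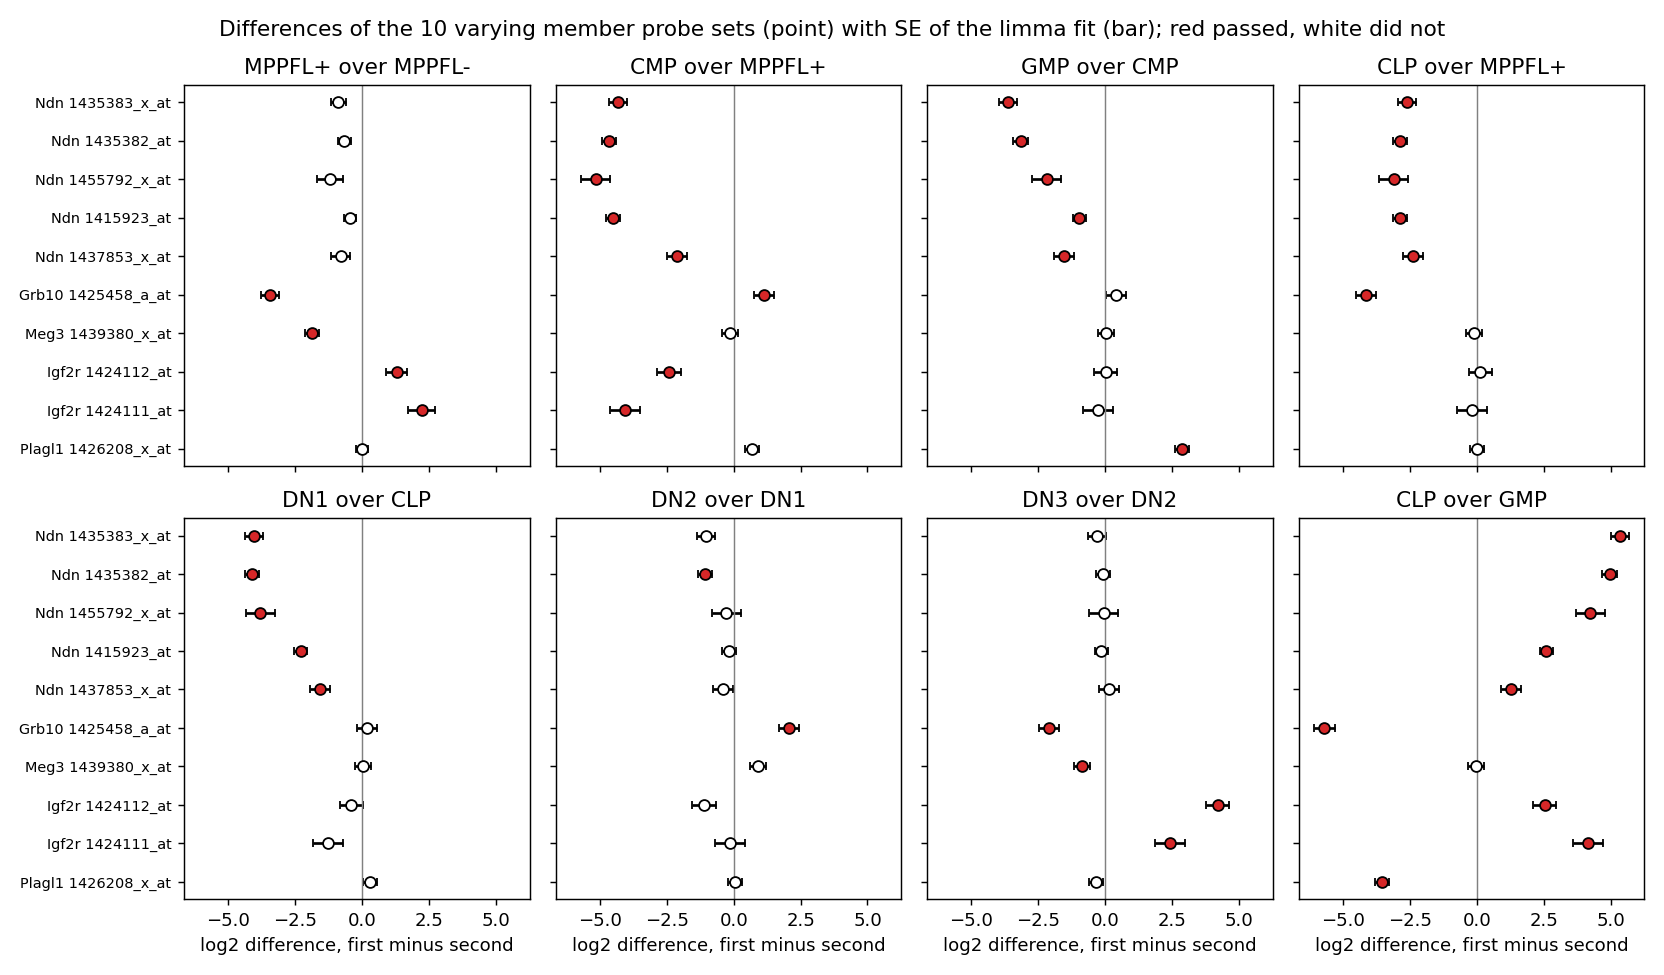
Differences of population means on the log2 scale, first minus second population (horizontal axes), for the 10 member probe sets that differed across populations (rows) in 8 comparisons (panels), with bars of 1 SE of the limma fit. Red points passed and white points did not. Ndn and Grb10 lie left of 0 in CLP over MPPFL+, and in CLP over GMP they lie on opposite sides, with Grb10 at -5.69.

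The members were set beside 63 other imprinted genes, of which 53 were measured by a probe set of 1 gene, 35 left the floor range on some array and 34 differed across populations by the F test, against 57.6% of the 18193 genes. In CLP against GMP, 11 of the 53 were higher and 4 lower, beside 15.9% and 11.1% of all genes. In CMP against MPPFL+, 2 were higher and 9 lower, beside 4.82% and 17.2% of all genes. In MPPFL+ against MPPFL-, 2 were higher and 4 lower, beside 10.4% and 5.13% of all genes. The median difference of the list lay between -0.01 and 0 in each of the 8 comparisons, beside 0 over all genes. In each population 21 to 29 of the 53 were near the floor on every array, so this median says little about the others.

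Several of them had their highest mean level in MPPFL-. Ppp1r9a, a neurabin that binds actin, was at 8.08 in CMP and 10.11 in MPPFL+ (difference -2.03, adjusted p = 2.3e-05), at 4.34 in GMP, and at 9.36 in CLP. Sgce, a sarcoglycan of the same imprinted cluster as Ppp1r9a, was at 6.30 in CMP and 9.68 in MPPFL+ (difference -3.38, adjusted p = 0.00024), and at 7.45 in CLP and 3.44 in GMP (difference 4.01, adjusted p = 1.8e-05). Phlda2, a pleckstrin homology protein that limits placental growth in mice, had levels of 3.75 ± 0.78 in MPPFL+ and 7.31 ± 0.48 in MPPFL- (SD), a difference of -3.56 (adjusted p = 9.5e-09), in the same comparison in which Grb10 and Meg3 were lower. Cdkn1c, the p57 cell cycle inhibitor and a neighbour of Phlda2, was at 5.50 ± 1.60 in MPPFL+ and 7.29 ± 0.35 in MPPFL- (difference -1.79, adjusted p = 0.013, arrays overlapping).

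Other imprinted genes had their highest level elsewhere. Tfpi2, a protease inhibitor, was at 5.70 in GMP and 2.19 in CMP (difference 3.51, adjusted p = 8.1e-06), as Plagl1 was. Gatm, an enzyme of creatine synthesis, was at 11.53 in GMP and fell in DN1, at 4.43, against CLP, at 8.08 (difference -3.65, adjusted p = 3.9e-08). Ddc, the aromatic amino acid decarboxylase gene next to Grb10, was at 8.50 in DN2 and 3.49 in DN1 (difference 5.01, adjusted p = 3.0e-07), the comparison in which Grb10 was higher as well. Unlike Grb10, Ddc stayed at 8.77 in DN3.

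**Figure D4:**
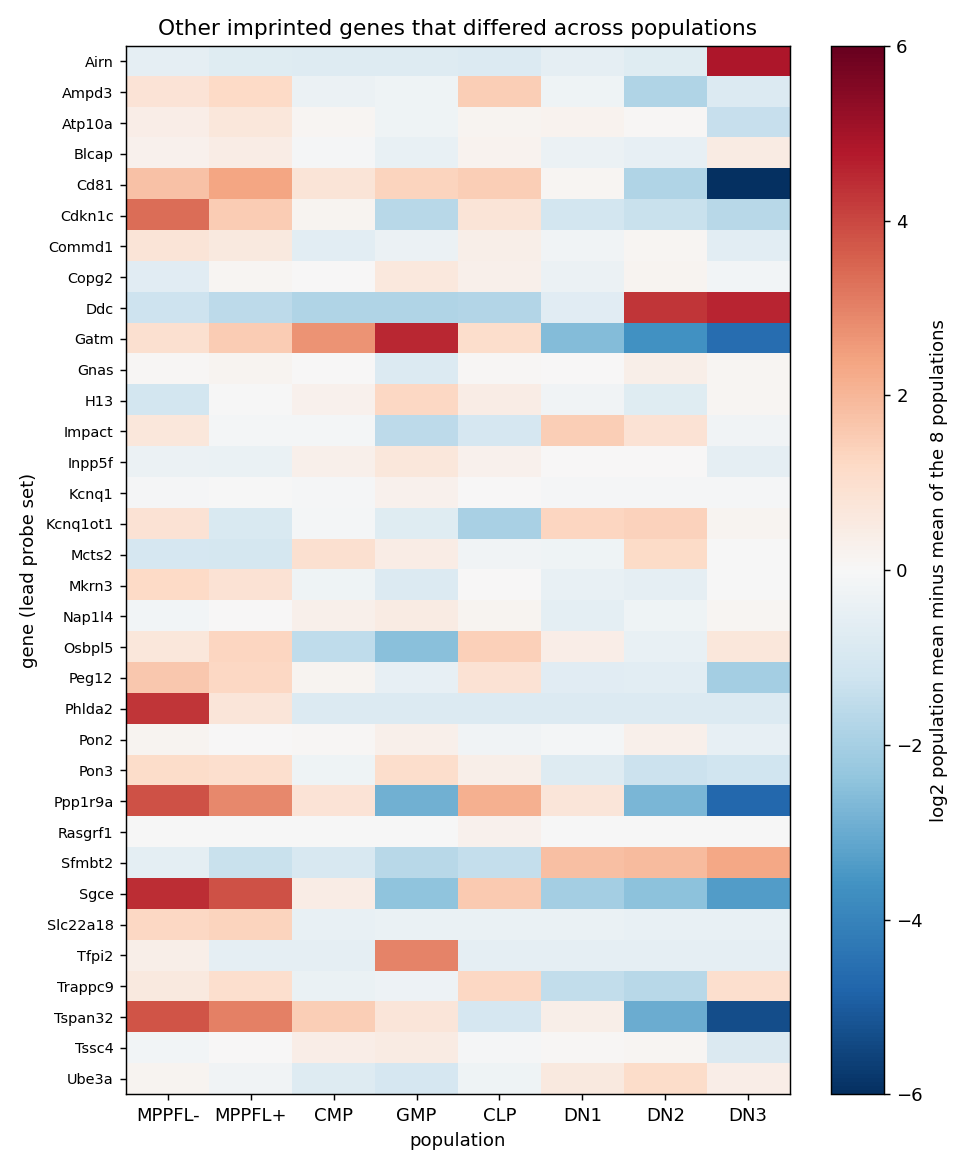
Population means of the 34 other imprinted genes that differed across the 8 populations, as log2 level minus the mean of the 8 population means of that gene (colour), with genes in rows and populations in columns. Sgce, Ppp1r9a, Phlda2 and Cdkn1c are highest in MPPFL-, Gatm and Tfpi2 in GMP, and Airn and Ddc in DN3.

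The insulin-like growth factor axis that Igf2r and Grb10 act on was measured for 27 of 28 genes. Of these, 21 left the floor range on some array and 16 differed across populations, beside 57.6% of all genes. In MPPFL+ against MPPFL-, 4 rose and 1 fell, beside 10.4% and 5.13% of all genes. Shc1, an adaptor of receptor signalling, was at 8.62 in MPPFL+ and 7.32 in MPPFL- (difference 1.30, adjusted p = 0.011). In CLP against MPPFL+, 0 rose and 2 fell, beside 2.31% and 3.66% of all genes. Among the 2 was Igf1r, the receptor for the growth factors, at 9.20 in CLP and 10.46 in MPPFL+ (difference -1.26, adjusted p = 0.00054). Igfbp4, a secreted binding protein that holds these factors, was at 8.15 in DN3 and 13.71 in DN2 (difference -5.55, adjusted p = 3.7e-08). Hmga2, a chromatin protein of fetal and stem cells, was at 3.94 in DN2 and 10.58 in DN1 (difference -6.64, adjusted p = 7.3e-07).

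The factors that set or keep imprints all had a probe set of 1 gene, 14 of 14, and 12 left the floor range on some array. Zfp57 and Dnmt3l did not. Across populations 11 differed, beside 57.6% of all genes. In CMP against MPPFL+, 0 rose and 7 fell, beside 4.82% and 17.2% of all genes, with a list median of -0.54. In CLP against GMP, 6 rose and 0 fell, beside 15.9% and 11.1% of all genes, with a median of 0.34. Dnmt3b, a DNA methyltransferase, was at 9.49 in CMP and 11.60 in MPPFL+ (difference -2.11, adjusted p = 0.00017). Ctcf, the insulator protein that binds the unmethylated control region between Igf2 and H19, was at 11.19 in CMP and 12.34 in MPPFL+ (difference -1.15, adjusted p = 4.9e-06). Uhrf1, which brings the maintenance methyltransferase to replicating DNA, was at 13.80 in DN3 and 11.57 in DN2 (difference 2.23, adjusted p = 2.2e-05), the comparison in which the probe set of Mir675 and H19, Airn and Igf2r were higher.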

How the data were processed

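The authors deposited 1 table of log2 values for 26 arrays. Their normalization and summarization are not given in the sources used here. Per the labels' protocols, RNA was extracted with Trizol and labelled as biotinylated cRNA. Populations and replicates were taken from the titles, 0 columns of other samples were present, and symbols came from the platform annotation.

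The values were used as deposited, without filter, for all 45037 probe sets that are not controls. They were fitted with limma 3.58.1 in R 4.3.3 (lmFit, then eBayes). The model held population alone and left 18 residual degrees of freedom, to which eBayes added 0.482. It used two-sided tests, Benjamini-Hochberg adjustment and a threshold of 0.05. The fit was tested on simulated data. Every member was named, along with up to 4 genes per other list and comparison that passed with the largest change, genes as a check of labels, and the 3 genes most like a member. Members and lists were chosen with earlier results of these data known. Genes of lists are represented by the probe set with the highest mean. A fold given as at least a value is bounded by the floor and leaves out the sampling error. Precision is limited by the number of arrays. Alternatives covered normalization, the floor, the arrays fitted, the replicate block, the spike-in clusters and each array left out. Promoters were read from a RefSeq table of build GRCm38.p6, in which 9 of the 10 genes were found.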

Additional observations from a re-analysis of the deposited data

Results flagged for a closer look

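Meg3 on 1452905_at read 3.63 on MPPFL- replicate 4, while the other 4 arrays of that population read 2.17 to 2.35. Its gap to the nearest of them exceeded 0.710 of the population's range, Dixon's critical value for 5 samples. That critical value is for normally distributed values, which readings cut off at the floor are not, so no chance rate is given. The 11 groups examined were the same 5 MPPFL- arrays on different probe sets, so they were not independent. The same array had the highest MPPFL- values of Meg3 on 1439380_x_at (5.00) and 1452183_a_at (3.28).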

How the results depend on the processing

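Of the 46 calls on single probe sets, 2 of them on the probe set of Mir675 and H19, 40 held when each of the 26 arrays was left out in turn, 25 held under every alternative, and 0 reversed. The replicate numbers were not taken as pairs, since in no comparison did the deviations of all 3 same-numbered pairs correlate clearly. Weak correlations of so few arrays cannot show that the samples were unpaired. The correlations were all positive but weak in DN1 against CLP (0.053, 0.081 and 0.100) and in DN3 against DN2 (0.074, 0.098 and 0.072), and of mixed sign elsewhere (0.44, -0.60 and -0.27 in CLP against MPPFL+). With a replicate block, 4436 probe sets passed in MPPFL+ against MPPFL- in place of 6759, and the only member call lost was Grb10 in CMP against MPPFL+ (adjusted p = 0.081).

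With 1 lead probe set per gene (18193 tested), 2886 passed in MPPFL+ against MPPFL-, 4379 in CMP against MPPFL+, 3891 in GMP against CMP, 1190 in CLP against MPPFL+, 4890 in DN1 against CLP, 1475 in DN2 against DN1, 5652 in DN3 against DN2, 5152 in CLP against GMP and 10566 by the F test. Fewer probe sets tested lowers these counts. Of the 9 members then tested, 3 passed in CMP against MPPFL+, 2 in GMP against CMP, 2 in CLP against MPPFL+, 1 in DN1 against CLP, 1 in DN2 against DN1, 4 in CLP against GMP and 5 by the F test. With only the compared populations in the fit, which leaves few arrays, 1225 passed in CMP against MPPFL+ (3 members), 2564 in GMP against CMP (3 members), 649 in CLP against MPPFL+, 5257 in DN1 against CLP, 297 in DN2 against DN1 (1 member) and 6107 in DN3 against DN2. Fits within a spike-in cluster were added after seeing the data, and the DN1 and DN2 cluster holds just these populations, so its fit gave the same 297 probe sets and 1 member.

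With the spike-in cluster as a random block (correlation 0.529), 1313 passed in CMP against MPPFL+ (5 members), 1627 in GMP against CMP (3 members), 1912 in DN1 against CLP, 3757 in DN3 against DN2 (2 members) and 2592 in CLP against GMP, and 7 members passed in MPPFL+ against MPPFL-. With values below 5 raised to 5, 0 members passed in DN2 against DN1 and 2 in DN3 against DN2. Without the 4 arrays with Xist above 5, an alternative added after seeing the data that leaves DN1 and DN2 with 1 array each, assumed to vary like the others, 10 members passed in DN1 against CLP and 6 in DN2 against DN1. The cause of these changes was not tested.

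Leaving out 1 array gave 3 to 7 members in MPPFL+ against MPPFL- (7 without MPPFL- replicate 1), 7 to 9 in CMP against MPPFL+, 5 to 7 in GMP against CMP, 6 in CLP against MPPFL+, 5 to 8 in DN1 against CLP (8 without DN1 replicate 1 or 3), 1 to 3 in DN2 against DN1 (1 without DN1 replicate 2 or DN2 replicate 3), 3 to 7 in DN3 against DN2 (7 without DN2 replicate 1 or 2), 8 to 10 in CLP against GMP and 10 to 11 by the F test. Over all probe sets, MPPFL+ against MPPFL- ranged from 4407 (without MPPFL+ replicate 2) to 7696. Near the floor, as for Meg3, Plagl1 outside GMP and most Grb10 thymocyte arrays, differences are limits rather than sizes.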
